A study of Homo sapiens with 171 samples.

Results

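The clustered core histone genes encode the 4 proteins, H2A, H2B, H3 and H4, around which DNA is wound in the nucleosome. Members were the genes whose current symbol begins with H2AC, H2BC, H3C or H4C followed by a number and that had a probe set annotated to that symbol alone. The rule found 52 such genes among the 18417 genes measured by Affymetrix Human Gene 1.0 ST arrays in 46 ovarian cancer cell lines, cultured untreated or with cisplatin, a platinum drug that crosslinks DNA, at the GI50 concentration of the line for 48 h. H4C14 and H4C15, near-identical copies of the same gene, had equal values on all arrays and were counted once, as H4C14. That left 51 genes, of which 14 were H2A, 17 were H2B, 8 were H3 and 12 were H4 genes. The pseudogene H2BC19P is among the H2B genes, and no member had more than 1 probe set.

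In 18 lines, hybridized in batches 1 to 3, each arm had 3 cultures, apart from HeyA8 with 2 cisplatin cultures. In the other 28 lines, hybridized in batches 4 and 5, each arm had a single culture, apart from SKOV-3, which had an untreated culture in each of these batches. OVCA433 also had a culture of each arm in batch 4, and PA-1 an untreated culture in batch 5. All cultures were established lines grown alone, and each line served as its own control within a batch. The sources do not say whether cultures of a line were grown on separate days. Tests on the single cultures of the 18 lines thus have p-values that measure only the spread between cultures of a line, which may be technical. Tests with 1 difference per line have p-values that measure the spread of the change between lines. The GI50 concentration was chosen for each line and its value is not given, so lines cannot be compared at a matched dose. The lines include relatives by name (HeyA8, HeyC2 and Hey, then DOV13, DOV13A and DOV13B, and A2780 with A2780cisR). C13 was treated as a relative of A2008, which the names do not show. PA-1 derives from a teratocarcinoma. In untreated cultures of batches 1 to 3 the epithelial keratin gene KRT8 was at 6.57 to 13.3 and the leukocyte gene PTPRC had a median of 2.93 and a highest value of 9.51. The epithelial gene EPCAM ran from 2.06 to 12.3 there, and the ovarian carcinoma gene PAX8 from 5.16 to 10.7, so these markers varied widely between lines. Other ovarian carcinoma genes spanned less, with WT1 at 5.21 to 7.51, MUC16 at 4.64 to 6.68 and MSLN at 5.33 to 8.89. The endothelial genes PECAM1 and CDH5 had medians of 4.43 and 5.93 and highest values of 12.3 and 11.2.

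Values are RMA expression levels on the log2 scale, on which a difference of 1 is a doubling, and a level is read only against the same probe set on other arrays. The 2 sets of batches are on different scales, since the upper quartile of the arrays was 7.82 to 8.08 in the first set and 5.80 to 6.59 in the second. Levels were compared within a batch and changes within a line and batch. The median member had an untreated level of 7.25, 7.30 and 7.22 in batches 1, 2 and 3, above the median gene at 6.61, 6.67 and 6.60. In batches 4 and 5 it was at 4.79 and 4.68, below the median gene at 5.18 and 5.17. The gap between the sets was not the same for each member. The untreated median of H2AC21 in batches 1 to 5 was 11.3, 11.4, 11.5, 6.58 and 6.90. That of H2BC21 was 7.71, 7.50, 7.49, 7.17 and 7.16, and that of H2BC4 was 7.44, 7.42, 7.30, 4.65 and 4.70. The cause of this difference between members was not tested. Some arrays stood apart from their own line. With levels centred on the batch, the 2 cultures of Hey correlated at 0.25, those of OAW28 at 0.47 and those of OV56 at 0.47, and cisplatin culture 1 of OVCAR-10 correlated at no more than 0.51 with any other culture of OVCAR-10. Several results that rest on them are given with and without them, and the others include them.

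Clustered histone genes lie mainly in a large group on chromosome 6 and a smaller group on chromosome 1, and most are transcribed during DNA replication, when new nucleosomes are assembled. Their messenger RNAs end in a stem-loop that is bound by SLBP in place of a poly(A) tail. They are short-lived outside S phase and are known to drop when DNA synthesis stops. Several members, here H2AC6, H2BC4, H2BC5, H2BC12 and H2BC21, are known to give polyadenylated transcripts as well.

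The 250 bases before the RefSeq start site (GRCh38.p14) are shown for the member of each family with the largest fall after cisplatin that had an entry, and for H2BC12, which rose in some lines and fell in others. Capitals mark matches to 3 short motifs on either strand, and matches to different motifs can overlap. The octamer known from H2B promoters reads ATTTGCAT, or ATGCAAAT where it lies on the other strand. The TATA box reads TATAAA, or on the other strand TTTATA. The CCAAT box reads as its name says, or on the other strand ATTGG. Each sequence runs 5′ to 3′ toward the gene.
H2AC21 (H2A), chr1:149887966-149888215, minus strand: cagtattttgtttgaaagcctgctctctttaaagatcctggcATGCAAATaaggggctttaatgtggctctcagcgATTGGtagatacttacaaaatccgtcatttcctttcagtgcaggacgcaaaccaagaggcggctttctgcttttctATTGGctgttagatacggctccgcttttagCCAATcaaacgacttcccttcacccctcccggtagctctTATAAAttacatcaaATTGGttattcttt
H2BC14 (H2B), chr6:27814772-27815021, plus strand: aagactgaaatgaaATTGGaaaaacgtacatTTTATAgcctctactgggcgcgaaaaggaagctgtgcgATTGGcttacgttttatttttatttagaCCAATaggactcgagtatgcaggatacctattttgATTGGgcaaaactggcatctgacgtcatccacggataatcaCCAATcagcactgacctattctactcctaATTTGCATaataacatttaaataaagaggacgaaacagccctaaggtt
H3C2 (H3), chr6:26032100-26032349, minus strand: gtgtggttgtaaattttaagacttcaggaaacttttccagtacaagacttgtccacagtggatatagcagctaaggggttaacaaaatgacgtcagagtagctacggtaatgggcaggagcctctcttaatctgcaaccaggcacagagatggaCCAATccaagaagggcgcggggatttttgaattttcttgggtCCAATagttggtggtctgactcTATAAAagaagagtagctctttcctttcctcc
H4C2 (H4), chr6:26027284-26027533, minus strand: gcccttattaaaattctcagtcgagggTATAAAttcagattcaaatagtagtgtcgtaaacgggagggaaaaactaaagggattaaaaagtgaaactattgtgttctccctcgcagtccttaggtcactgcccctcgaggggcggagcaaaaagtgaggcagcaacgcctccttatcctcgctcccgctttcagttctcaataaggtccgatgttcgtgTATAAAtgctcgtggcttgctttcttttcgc
H2BC12 (H2B), chr6:27146859-27147108, minus strand: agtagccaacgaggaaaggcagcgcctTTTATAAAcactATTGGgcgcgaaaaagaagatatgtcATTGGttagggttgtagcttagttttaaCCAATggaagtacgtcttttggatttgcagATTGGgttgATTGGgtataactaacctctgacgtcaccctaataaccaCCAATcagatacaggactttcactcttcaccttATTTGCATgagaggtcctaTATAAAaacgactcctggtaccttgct
H2BC14 and H2BC12 each held the octamer, 48 and 46 bases before the start, while H3C2 and H4C2 held none. In H2AC21 it lay 208 bases before the start.

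Over the promoters of 45 members found in the table, 23 held the octamer, against 1.63% of the 35116 promoters of all genes. The octamer was in 10 of 13 H2A and 13 of 16 H2B promoters and in 0 of 6 H3 and 0 of 10 H4 promoters. Its matches lay at a median of 194.5 bases before the start for H2A (98 to 208) and 49 for H2B (45 to 149). Head-to-head H2A and H2B starts lay 215 to 248 bases apart, so 1 octamer can be counted for both genes. The TATA box was in 31 of 45, against 10.7% of all promoters, with 5 of 10 for H4. Its matches lay at a median of 31, 32 and 36.5 bases before the start for H2A, H3 and H4. For H2B the median was 205 (27 to 223), and the only match of H2BC14 lay at 219, on the other strand. A match anywhere in the 250 bases thus need not be the TATA box of that gene. The CCAAT box was in all of the 35 H2A, H2B and H3 promoters and in 3 of 10 H4 promoters, against 32.0% of all promoters. Members are related by duplication, and neighbours can share the stretch between their starts, so these shares are a description of shared sequence. Of the 23 members with the octamer 15 fell after cisplatin (median change -0.34), and of the 22 without it 11 fell (median -0.21), a comparison that is also one of H2A and H2B against H3 and H4.

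Cisplatin was followed by lower levels of core histone messenger RNA. Over the 46 lines, with 1 difference per line between cisplatin and untreated cultures, 30 of 51 members fell and 0 rose at an adjusted p under 0.05 (limma, Benjamini-Hochberg over 18417 genes), where 4.72% of all genes fell and 4.98% rose. At an unadjusted p under 0.05, 36 members were lower and 0 higher, where 4067 of the 18417 genes passed in either direction. The mean change was below 0 for 50 members, and the median change over the members was -0.26, against -0.0061 for all genes. In cultures measured as a whole, fewer cells in S phase and less histone RNA per cell cannot be told apart.

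The families overlapped in the size of their change. Among H2A genes 11 of 14 fell (median change -0.35), among H2B genes 9 of 17 (-0.24), among H3 genes 4 of 8 (-0.30) and among H4 genes 6 of 12 (-0.21). Within a line, the H2A median lay below the H4 median in 37 of 46 lines, and below the H2B median in 25. The H2B median lay below the H4 median in 34 lines, and the H3 median did in 32. These counts are a description, with no test. The plot of changes by family shows members from near 0 down to the largest fall in every family.

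**Figure D1:**
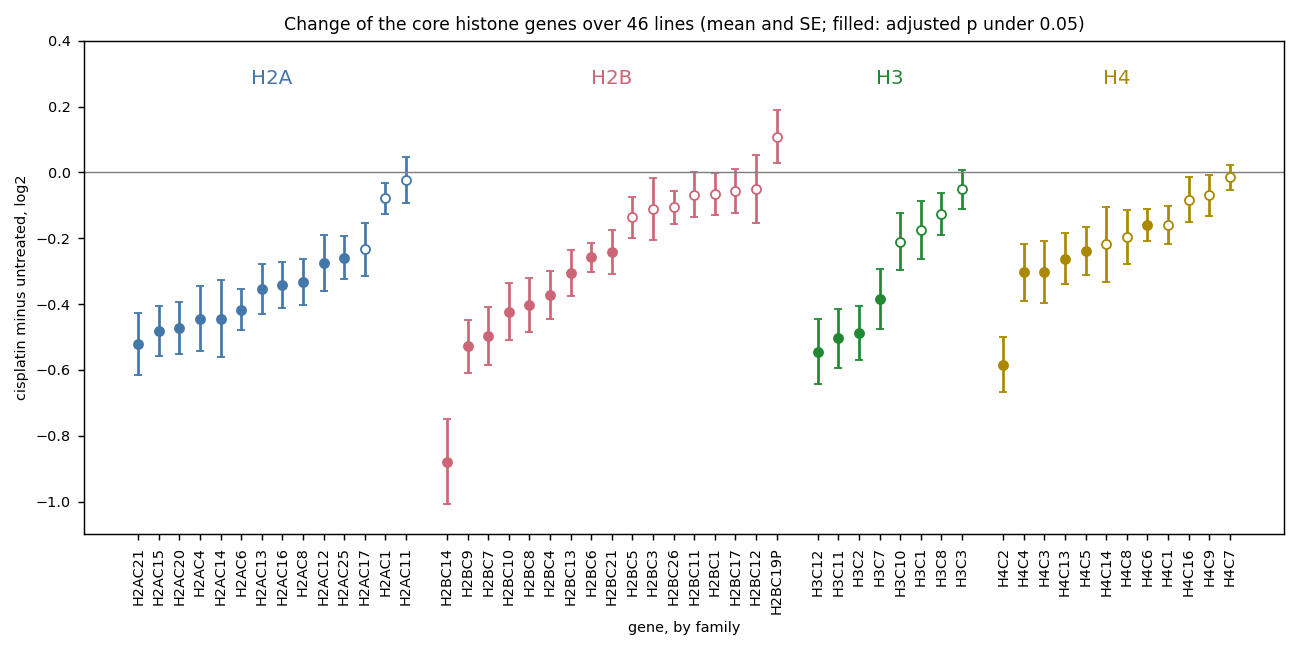
Mean change after cisplatin (log2, vertical axis) of the 51 core histone genes over 46 lines, with its SE, grouped by family. Filled points passed an adjusted p of 0.05, and the 30 filled points all lie below 0, with H2BC14 lowest at -0.88.

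The H2A genes with the largest falls were H2AC21, H2AC15 and H2AC20, which encode canonical H2A. H2AC21 fell by 0.52 (SE 0.09, n = 46 lines, adjusted p = 0.000147), and was lower in 40 lines. In C13 its untreated cultures were at 11.5, 11.6 and 11.6 and its cisplatin cultures at 9.87, 9.77 and 9.69, which do not overlap. In TYK-nu the untreated cultures were at 11.02, 11.7 and 11.8 and the cisplatin cultures at 11.5, 11.1 and 11.6, and the arms overlap. H2AC4, which fell by 0.45 (SE 0.10), was at -0.15 (adjusted p = 0.454) in the lines of batches 4 and 5 alone. H2AC15 fell by 0.48 (SE 0.08) and H2AC20 by 0.47 (SE 0.08). The 3 H2A genes that did not pass were H2AC17 (-0.23), H2AC1 (-0.079), a testis-type H2A gene, and H2AC11 (-0.024).

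H2BC14 had the largest change of any member. It fell by 0.88 on average (SE 0.13, adjusted p = 6.09e-06), a 1.84-fold decrease, and was lower in 41 of 46 lines. In OVCAR-8 its untreated cultures were at 11.1, 10.8 and 10.8 and its cisplatin cultures at 7.37, 7.46 and 7.27. This is an 11.5-fold decrease within the line (-3.53, SE 0.16, adjusted p = 7.53e-30). In PA-1 the untreated cultures were at 12.2, 12.3 and 12.5 and the cisplatin cultures at 12.1, 12.4 and 12.6, with overlapping arms and a change of 0.057 (SE 0.16). Its head-to-head neighbour H2AC14 fell by 0.44 (SE 0.12).

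The next H2B genes were H2BC9, which fell by 0.53 (SE 0.08), and H2BC7, which fell by 0.50 (SE 0.09). At the other end, H2BC12 changed by -0.051 (SE 0.10, adjusted p = 0.836) and the pseudogene H2BC19P by 0.11 (SE 0.08, adjusted p = 0.472). H2BC1, a testis-type H2B gene, was at -0.066 (SE 0.065).

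Of the H3 genes, H3C12 fell by 0.55 (SE 0.10), H3C11 by 0.50 (SE 0.09) and H3C2 by 0.49 (SE 0.08). In OVCA420 the untreated cultures of H3C12 were at 8.58, 8.63 and 8.63 and the cisplatin cultures at 6.32, 5.88 and 6.37, a 5.36-fold decrease. H3C8 (-0.13, SE 0.06) and H3C3 (-0.051, SE 0.059) did not pass, nor did H3C1 (-0.18, SE 0.09, adjusted p = 0.226). Without Hey, OAW28 and OV56 H3C1 fell by 0.25 (adjusted p = 0.0243), and in the replicated lines alone by 0.51 (adjusted p = 0.0161), while it was at 0.029 (adjusted p = 0.924) in the lines of batches 4 and 5 alone.

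Of the H4 genes, H4C2 fell by 0.58 (SE 0.08, adjusted p = 4.18e-06) and was lower in 39 lines. In C13 its untreated cultures were at 9.98, 9.95 and 9.88 and its cisplatin cultures at 7.84, 7.79 and 7.75, a 4.43-fold decrease. H4C4 and H4C3 followed, each with a fall of 0.30 (SE 0.09). Without 6 lines related to another line (HeyC2, Hey, DOV13A, DOV13B, C13 and A2780cisR) their adjusted p was 0.131 for H4C4 and 0.198 for H4C3. H4C9 (-0.070, SE 0.062) and H4C7 (-0.015, SE 0.038) did not pass. H4C9, H2AC11 and H3C3 were at 0.037, 0.044 and 0.073 in the lines of batches 4 and 5 alone, and H4C7 was at 0.012 in the replicated lines alone.

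The 5 members known for polyadenylated transcripts did not move as a set. H2AC6 fell by 0.42 (SE 0.06) and H2BC4 by 0.37 (SE 0.07). H2BC5 changed by -0.14 (SE 0.06, adjusted p = 0.172), and passed in the replicated lines alone, with a fall of 0.24 (adjusted p = 0.00451). H2BC21 passed with a fall of 0.24 (SE 0.07, adjusted p = 0.0132), but its mean change was 0.082, 0.066 and -0.0031 in batches 1 to 3 and -0.52 and -0.39 in batches 4 and 5. Without batch 4 the adjusted p of H2BC21 was 0.275, and in the replicated lines alone its change was 0.053. H2BC21 was also the member whose change over the 46 lines followed the mean of the other members least (r = 0.049), against 0.85 for H2AC15 at the other end.

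The falls differed in size between the batches, which hold different lines. The median change over the members was -0.54, -0.34 and -0.57 in batches 1, 2 and 3, and -0.14 and -0.16 in batches 4 and 5. The number of members with a mean change below 0 was 49, 48, 49, 41 and 38 of 51. The 18 replicated lines alone gave 41 members that fell (3.26% of all genes did), and the 29 lines with cultures in batches 4 and 5 alone gave 14 (2.72% of all genes). Lines, number of cultures, array scale and the lower level of the members all change between these sets, and their part in the result was not tested. Without Hey, OAW28 and OV56, 35 members fell. Leaving out 1 line at a time gave 28 to 34.

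Members were also split by their mean level over all arrays. Of the 26 members at or above the median gene in mean level 20 fell, with a median change of -0.38. Of the 25 below it 10 fell, with a median of -0.16. The same split was not made for all genes, so whether this difference is particular to the members is not known.

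Between lines, the median change over the members was below 0 in 38 of 46, and in 36 of 43 without Hey, OAW28 and OV56. It was lowest in C13 (-1.31), HeyA8 (-1.07) and OVCA420 (-0.92) among the replicated lines, and in DOV13A (-0.57), SKOV-6 (-0.48) and OVCA432 (-0.48) among lines with single cultures. It was highest in OV56 (0.32), OAW42 (0.26) and JHOS-3 (0.056) among the latter and in FU-OV-1 (0.12), TYK-nu (-0.080) and OVCAR-10 (-0.15) among the replicated lines. Without cisplatin culture 1 of OVCAR-10 that line's median was -0.055, above that of TYK-nu. All 4 family medians were below 0 in 30 lines and above 0 in 2, OAW42 and OV56, while 14 lines had mixed signs. OV56, one of the 3 lines with Hey and OAW28 whose arms were least alike, held both the lowest value of H2AC21 (-2.32) and the highest of H3C1 (2.14). Hey and OV56 each held the highest value of 9 of the 51 members, and OAW42 that of 10. The plot of line medians by batch shows these values.

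**Figure D2:**
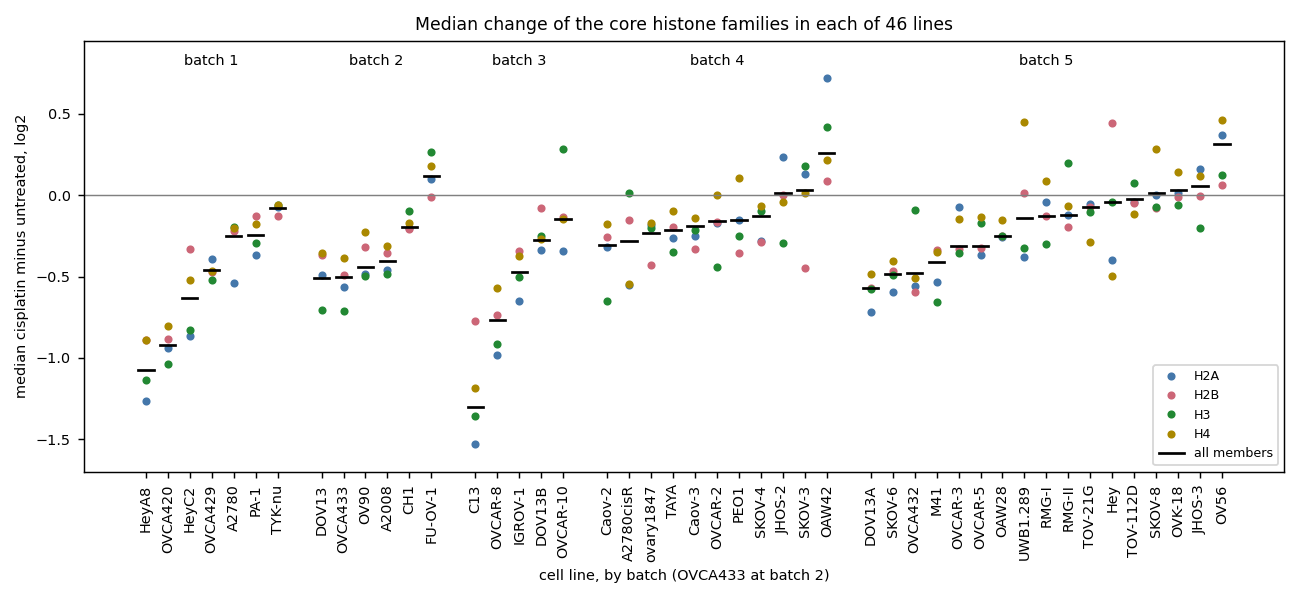
Median change after cisplatin (log2, vertical axis) over the core histone genes in each of 46 lines, by batch, with the median of each family as a dot and of all 51 members as a bar. Medians run from -1.31 in C13 to 0.32 in OV56, and 38 bars lie below 0.

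Within the replicated lines each line was tested against its own controls in 1 model with 71 residual degrees of freedom. Of 918 pairs of member and line, 342 fell and 10 rose, where 3.68% and 4.55% of all gene and line pairs did. Falls made up 47.2% of H2A, 29.7% of H2B, 40.97% of H3 and 33.8% of H4 pairs. These shares depend in part on cisplatin culture 1 of OVCAR-10. They are not given by family without it, so they do not rank the families. Without it H3C11 fell in 11 lines in place of 2, and H2AC13 in 12 in place of 9. Only H2AC1 and H2BC19P of the 51 members fell in none of the 18 lines. H4C2 fell in 15 lines, H2AC4 in 14 and H2BC14 in 13, and without that culture H4C2 fell in 14.

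The number of members that fell differed between lines. It was 41 in OVCA420 (4.53% of all genes fell there), 39 in HeyA8 (7.80%), 38 in C13 (7.34%) and 35 in OVCAR-8 (4.30%). In the middle were HeyC2 with 27 (2.30%), OVCA433 with 25 (1.83%), DOV13 with 24 (0.668%) and IGROV-1 with 23 (5.27%). OVCA429 and A2008 each had 17 (1.66% and 3.39%), A2780 and OV90 each had 15 (1.82% and 1.80%), and PA-1 had 12 (10.8%). OVCAR-10 had 7 (1.25%), DOV13B 3 (0.424%), FU-OV-1 3 (10.5%), CH1 1 (0.527%) and TYK-nu 0 (0.0217%). DOV13 had 24 members lower where few genes of any kind fell, and PA-1 had 12 where many did.

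Leaving out any single culture left 33 to 37 members that fell in C13, 32 to 39 in HeyA8 and 37 to 41 in OVCA420. In OVCAR-10 the count was 0 without cisplatin culture 1, the culture that stood apart, and ran up to 14 without cisplatin culture 3. It ran from 0 to 1 in TYK-nu, with 1 where untreated culture 2 or 3 was left out, and from 1 to 3 in FU-OV-1, where leaving out untreated culture 2 or cisplatin culture 2 or 3 gave 1. In TYK-nu 4 of all genes fell, so few calls of any kind were made in that line.

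**Figure D3:**
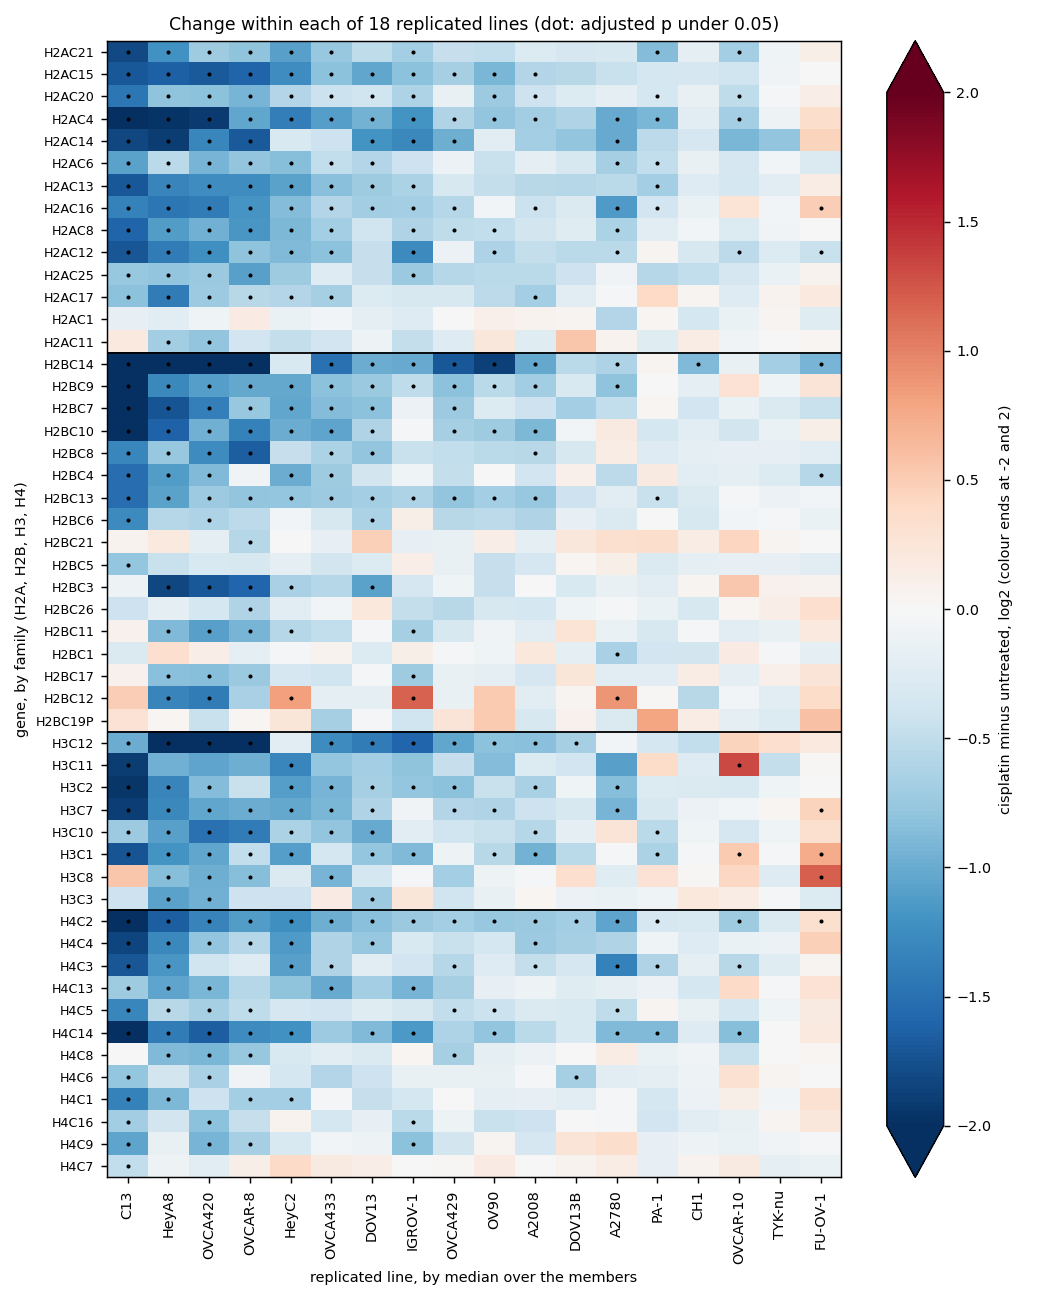
Change after cisplatin (log2, colour) of each core histone gene (rows, by family) within each of the 18 replicated lines (columns, by median change), with a dot where the adjusted p was under 0.05. Dots are dense at the left, with 38 to 41 members lower in C13, HeyA8 and OVCA420, and absent in TYK-nu.

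The change itself differed between replicated lines for 46 of 51 members (F test over 17 contrasts, adjusted p under 0.05), where 51% of all genes passed. The 5 that did not pass were H2AC1, H2AC25, H2BC19P, H2BC5 and H4C7. The widest range was that of H2BC14, between the values of OVCAR-8 (-3.53) and PA-1 (0.057). H3C11 lay between -1.89 (C13) and 1.32 (OVCAR-10), H3C12 between -2.42 (OVCA420) and 0.44 (OVCAR-10), H2BC12 between -1.40 (OVCA420) and 1.17 (IGROV-1), and H2AC4 between -2.13 (C13) and 0.36 (FU-OV-1).

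The upper end of H3C11 rests on 1 culture. In OVCAR-10 its untreated cultures were at 5.06, 5.23 and 5.86, and its cisplatin cultures at 9.94, 5.18 and 5.00. Without cisplatin culture 1 of OVCAR-10 the change of H3C11 there was -0.29 (SE 0.14), and its range over lines ran from -1.89 to 0.36, in PA-1, in place of 1.32. With that culture H3C11 fell in 2 lines at the threshold, HeyC2 and C13. Without it H3C11 fell in 11 lines, these and HeyA8 (-0.96), A2780 (-1.09), OVCA420 (-1.06), OVCA429 (-0.46), OV90 (-0.87), DOV13 (-0.68), OVCA433 (-0.77), IGROV-1 (-0.80) and OVCAR-8 (-0.98), and rose in PA-1 (0.36, adjusted p = 0.0286). Over all members 369 pairs of member and line fell without that culture in place of 342, where 4.00% of all pairs did. In C13 the untreated cultures of H3C11 were at 12.5, 12.3 and 12.2 and the cisplatin cultures at 10.5, 10.5 and 10.3, a 3.71-fold decrease.

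H2BC12 moved in opposite directions in different lines. In IGROV-1 its untreated cultures were at 8.24, 8.42 and 8.57 and its cisplatin cultures at 9.53, 9.58 and 9.64, a rise of 1.17 (SE 0.24, adjusted p = 0.000371). In A2780 the untreated cultures were at 9.06, 8.84 and 9.11 and the cisplatin cultures at 9.77, 10.1 and 9.85, a rise of 0.89 (SE 0.24). It also rose in HeyC2, by 0.81 (SE 0.24). In those lines 1.69%, 1.72% and 2.83% of all genes rose, and H2BC12 was the only member to do so.

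In OVCA420 the untreated cultures of H2BC12 were at 9.82, 9.38 and 9.42 and its cisplatin cultures at 7.71, 7.82 and 8.89, a fall of 1.40 (SE 0.24). In HeyA8 it fell by 1.31 (SE 0.26), from 10.4, 10.2 and 10.1 to 8.995 and 8.85. HeyA8 and HeyC2, which share a name, thus lay at opposite ends for this gene. Among lines with single cultures, H2BC12 ran from -1.66 in SKOV-4 to 1.70 in JHOS-2. The SKOV-4 change was from 4.28, the lowest untreated level of H2BC12 in batch 4, to 2.62. Without batch 4 the mean of H2BC12 over lines was 0.036 in place of -0.051.

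**Figure D4:**
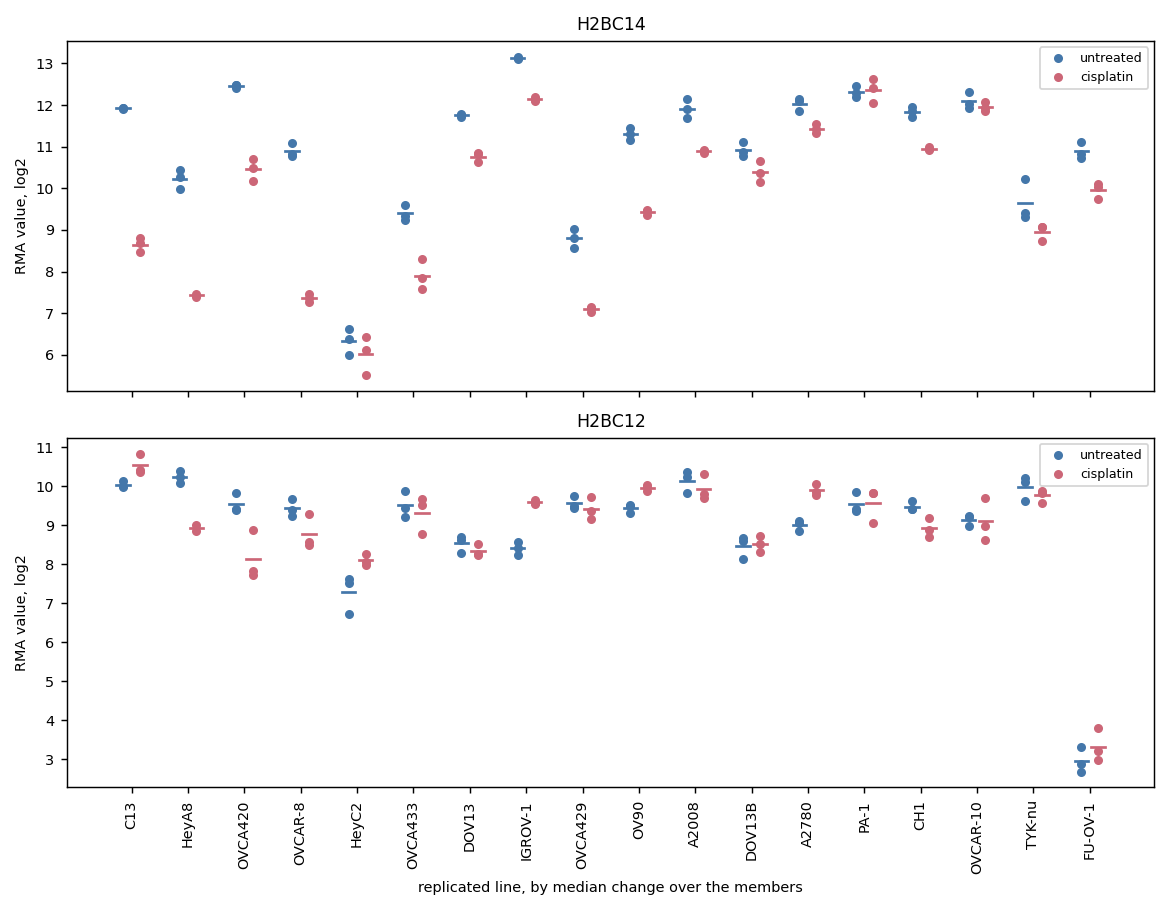
RMA values (log2, vertical axis) of H2BC14 and H2BC12 in every untreated and cisplatin culture of the 18 replicated lines, ordered by the median change over all members, with bars for the means. H2BC14 drops by up to 3.53 in OVCAR-8 with no overlap of the arms, while H2BC12 rises in IGROV-1, A2780 and HeyC2 and falls in HeyA8 and OVCA420.

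The other rises were in FU-OV-1 and OVCAR-10. In FU-OV-1, where 17.3% of all genes rose, 5 members rose and 3 fell. H3C8 rose by 1.199 (SE 0.24), from 6.21, 6.36 and 6.33 untreated to 7.26, 7.63 and 7.60. H3C1 rose by 0.74 (SE 0.16), from 7.15, 7.27 and 7.41 to 8.04, 8.03 and 7.99, and H2AC16, H3C7 and H4C2 rose by 0.49, 0.45 and 0.33. With arrays shifted to a common median, or quantile normalized, 3 members rose, as they did without untreated culture 1 or 2 or cisplatin culture 1. The members that fell there were H2BC14 (-0.92), H2BC4 (-0.57) and H2AC12 (-0.44). In OVCAR-10, where 2.93% of all genes rose, the 2 that rose were H3C11, described above, and H3C1, whose arms overlap. Without cisplatin culture 1, 0 members rose there.

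Untreated levels of the members differed between lines of the same batch for 51 of 51 members (F test over 15 contrasts in batches 1 to 3), where 86.8% of all genes passed. The widest range within a batch had a family median of 3.09 for H3, 1.94 for H2B, 1.73 for H2A and 1.69 for H4. The 5 widest members were H2BC12, H3C11, H2BC14, H4C4 and H3C1.

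H2BC12 was at 2.68, 2.88 and 3.31 in the untreated cultures of FU-OV-1. In the other lines of batch 2 it lay far above, with a median over the 6 lines of 9.46 and the highest level of 10.1 in A2008, so the range of array values in that batch was 7.18. Where a probe set measures little but background such a range is a lower bound, and whether this holds for H2BC12 in FU-OV-1 was not tested. In batches 4 and 5 its lowest levels were 4.28, in SKOV-4, and 4.58, in SKOV-6, with batch medians of 8.53 and 8.80.

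H3C11 was low in a single line of batch 3. It was at 5.38 in OVCAR-10, against a median of 12.04 and a highest level of 12.3, in C13. In batch 1 it ran from 6.20 in TYK-nu to 12.5 in HeyA8, with a median of 11.1, and in batch 2 from 6.82 in CH1 to 12.3 in A2008, with a median of 11.4. A line with H3C11 below 7 was thus found in each of these 3 batches.

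H2BC14 ran from 6.33 in HeyC2 to 12.5 in OVCA420 in batch 1, with HeyA8 at the median of 10.2. The HeyC2 cultures were at 6.003, 6.61 and 6.37 untreated and 5.52, 6.43 and 6.12 with cisplatin, and no fall passed the threshold in that line, the lowest in level of its batch. In batch 3 it ran from 10.9 in OVCAR-8 to 13.1 in IGROV-1. H4C4 and H3C1 were both lowest in OVCAR-10 and highest in IGROV-1 in batch 3, at 5.03 and 10.4 for H4C4 and at 4.58 and 9.39 for H3C1. In batches 4 and 5 H3C1 spanned 0.84 and 0.95, between 3.88 in JHOS-2 and 4.94 in PA-1.

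**Figure D5:**
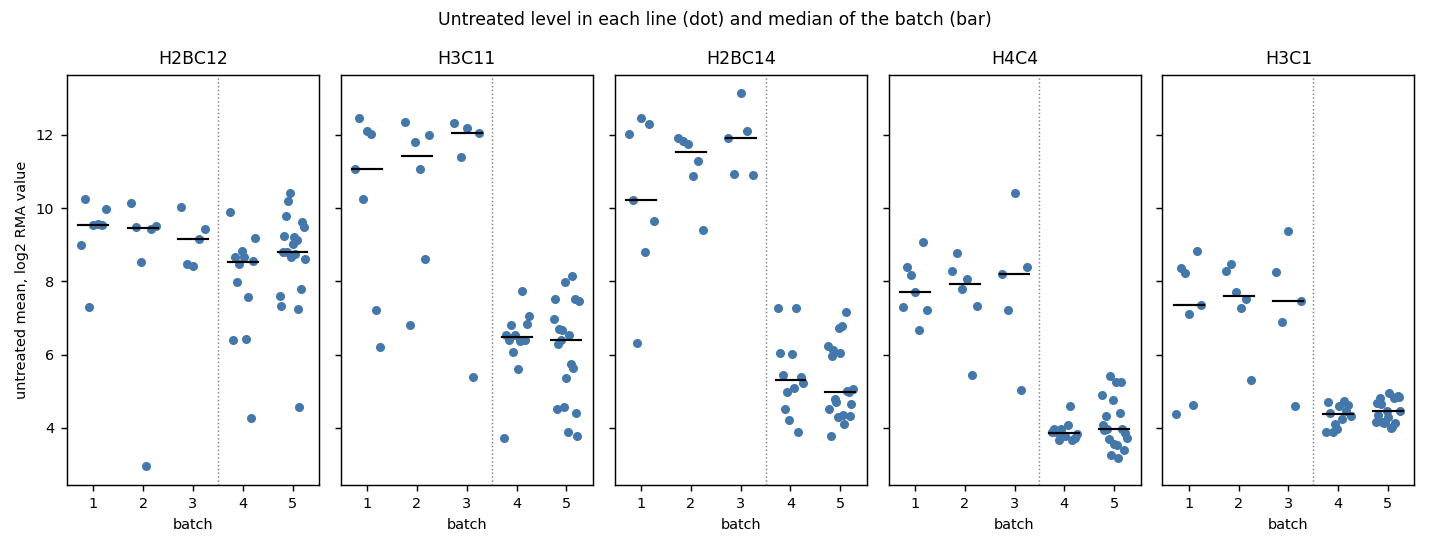
Untreated level (log2 RMA value, vertical axis) of the 5 core histone genes with the widest range within a batch, for each line (dot) and batch (horizontal axis), with the batch median as a bar. The dotted line parts batches 1 to 3 from batches 4 and 5, whose values are on another scale. H2BC12 lies at 2.96 in FU-OV-1 and at 8.53 or above in the other lines of batch 2.

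The median level over all members relative to the batch ran from -0.34 in A2780 to 0.34 in HeyA8 in batch 1, from -0.25 in FU-OV-1 to 0.29 in A2008 in batch 2, and from -0.53 in DOV13B to 0.40 in IGROV-1 in batch 3. C13 was at 0.39 and OVCAR-10 at -0.38. In batch 4 it ran from -0.28 in OAW42 to 0.19 in SKOV-3, and in batch 5 from -0.44 in RMG-I to 0.27 in TOV-112D. Levels relative to the batch, in lines grown untreated in 2 batches, correlated over the 51 members at 0.64 in OVCA433, 0.64 in PA-1 and 0.61 in SKOV-3. Levels relative to a batch depend on which other lines it holds.

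Changes of different members over lines were compared as a description. The correlation of the change over 46 lines had a median of 0.33 for the 321 pairs of members of the same family and 0.30 for the 954 pairs from different families, against 0.0071 for pairs drawn from every 20th gene of the table. By family it was 0.39 for H2A, 0.36 for H4, 0.34 for H3 and 0.27 for H2B. Each pair shares the same arrays, and the points are lines of different batches. For the 10 pairs of members whose start sites lie within 1000 bases of each other, most of them an H2A and an H2B gene head to head, the median was 0.29. H3C7 and H2BC9 had the highest, 0.71, with falls of 0.38 and 0.53. H2AC14 and H2BC14 were at 0.47, and H2AC20 and H2BC21 at 0.23, where H2AC20 fell by 0.47 and H2BC21 by 0.24.

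Along chromosome 6, 26 of 43 members fell, and on chromosome 1, 4 of 7. In gene order, 16 of 26 fell in the stretch from H2AC1 to H4C8, 1 of 5 in the stretch from H2BC11 to H2AC12, and 9 of 12 in that from H2BC13 to H2BC17. H4C16, the single member on chromosome 12, was at -0.083 (SE 0.068). The middle stretch holds H2AC11 and H2BC12, the latter with rises in 3 lines.

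Related gene lists were read from the same test over 46 lines. All 5 clustered H1 genes, which encode the proteins that bind DNA between nucleosomes, fell, with a median change of -0.62, and H1-3 fell by 1.08 (SE 0.12). Of 9 replacement variant histone genes, which are transcribed outside S phase too, 0 passed, with 1 at an unadjusted p under 0.05, and H2AZ1 was at -0.041 (SE 0.040). Within lines, 4 of the 9 fell in HeyA8 and 4 in C13, where 7.80% and 7.34% of all genes did. In OVCA420 1 fell (4.53% of all genes), and in FU-OV-1 3 rose (17.3%). Of 15 factors of histone transcription and messenger RNA processing 0 fell and 2 rose, where 4.72% of all genes fell and 4.98% rose. These were ZNF473, which acts in the processing of histone RNA 3′ ends, at 0.47 (SE 0.08), and CDK2, the S phase kinase that acts on the histone gene activator NPAT, at 0.21 (SE 0.07). ZNF473 was at 0.069 (adjusted p = 0.612) in the replicated lines alone, and CDK2 at an adjusted p of 0.25 without batch 4. NPAT (0.13, SE 0.07) and the stem-loop binding protein SLBP (0.020, SE 0.050) did not pass.

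Of 18 genes of DNA synthesis 1 fell, the helicase subunit MCM6 (-0.30, SE 0.08), and 1 rose, the replication licensing gene CDT1 (0.15, SE 0.05), with a median of 0.033. Neither passed without batch 4, at adjusted p values of 0.0892 and 0.35, and 1 of 18 is near the share over all genes. Within lines these genes moved in both directions. In HeyA8 16 of the 18 fell, where 7.80% of all genes did, with MCM6 at -1.78 (SE 0.09) and GINS2, a subunit of the replicative helicase complex, at -1.40 (SE 0.14). In HeyC2 14 fell and in OVCA433 and IGROV-1 11 each, where 27, 25 and 23 core histone genes fell. In C13 8 fell, in OVCA420 3, and in OVCAR-8 3 fell and 5 rose, where 38, 41 and 35 core histone genes fell. Of all genes 9.12% rose in OVCAR-8. In FU-OV-1 14 rose and 0 fell, where 17.3% of all genes rose, with the licensing factor CDC6 at 0.94 (SE 0.09) and the ribonucleotide reductase subunit RRM2 at 0.93 (SE 0.10). In OV90 10 rose and in OVCA429 9, where 1.12% and 2.25% of all genes rose and 15 and 17 core histone genes fell. Of the 15 factors of histone transcription and processing 6 fell in HeyA8 and 11 rose in FU-OV-1. Of 5 p53 targets 4 rose, with CDKN1A, which inhibits cyclin-dependent kinases, at 0.63 (SE 0.08), GDF15 at 0.68 (SE 0.12) and FAS at 0.47 (SE 0.10). In HeyA8, with 39 core histone genes lower, SLBP fell by 0.51 (SE 0.13, adjusted p = 0.00337), while in C13, with 38 lower, it was at -0.16 (SE 0.12, adjusted p = 0.35). In FU-OV-1 SLBP rose by 0.39 (SE 0.12, adjusted p = 0.00694).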

How the data were processed

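The authors deposited log2 expression levels per probe set. The submitters' processing notes name RMA, and its version is not given in the sources used here. Total RNA was labelled by the standard Affymetrix protocol, per the labels' protocols, and whether its priming copies RNA without a poly(A) tail is not given in the sources used here. Symbols came from the platform annotation, updated to RefSeq by gene identifier (19429 of 19460 probe sets with 1 symbol). Where a gene had several probe sets, that with the largest mean over all arrays stood for it, giving 18417 genes. Of 171 arrays, 4 repeats were averaged with their culture, leaving 167 cultures (85 untreated, 82 with cisplatin). Limma (3.58.1 in R 4.3.3) tested 1 difference per line against 0, and each replicated line in a model of group means. P-values were adjusted by Benjamini-Hochberg over all genes. In simulated data the test over all lines recovered 46.0% of changes of 0.2 and 97.0% of changes of 0.4. The test within 1 line recovered 2.09%, 25.4% and 83.9% of changes of 0.2, 0.4 and 0.8. A line with few falls can thus hold small falls that were not called. The 2 batches of OVCA433 were combined by least squares in the first test, and only batch 2 entered the second. Named genes were, per family, the 3 largest and 2 smallest falls, every member that rose over all lines, 5 members known for polyadenylated transcripts, the 5 widest ranges of change and of untreated level, and up to 3 genes that passed per related list. The rest were named after their values were seen. The members and lists were chosen with earlier results of these data known. Of 51 members 45 had a promoter in the RefSeq table. Precision is limited by the number of arrays, which carry no read depth. Alternatives covered scaling, dim genes, probe sets, copies, batches, lines, repeat arrays and cultures.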

Additional observations from a re-analysis of the deposited data

Results flagged for a closer look

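The change after cisplatin differed between the replicated lines for 46 core histone genes by the F test of the difference itself, where 51% of all genes did. The ranges over lines were 3.59 for H2BC14, 3.22 for H3C11, 2.86 for H3C12, 2.58 for H2BC12 and 2.49 for H2AC4, on the log2 scale. Without cisplatin culture 1 of OVCAR-10 the range of H3C11 was 2.25 and that of H3C12 was 2.95, and 45 members passed the F test.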

How the results depend on the processing

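Of the 51 members, 30 fell over all lines, and 14 did in the lines of batches 4 and 5 alone. Under the other settings 20 to 41 fell and 0 rose, the 20 among the 26 members left when genes under the median gene were left out. That filter gave 220 falls of member and line in place of 342, 25 members whose change and 26 whose level differed between lines, since it tests fewer members. Leaving out culture number 1, 2 or 3 gave 192 to 292 falls within lines and 4 to 9 rises in place of 10, with fewer cultures per arm. Leaving out cisplatin culture 1 of OVCAR-10, an alternative chosen after seeing the data, gave 369 falls and 10 rises. The culture numbers did not pair the arms (7 of 53 pairs correlated over 0.1, median r = -0.03), and with the replicate block 323 falls, 8 rises and 44 members whose change differed were called. The sign turned for H2AC11 (0.044), H3C3 (0.073), H4C9 (0.037) and H3C1 (0.029) in batches 4 and 5 alone, for H2BC12 without batch 4 (0.036), for H2BC21 (0.053) and H4C7 (0.012) in the replicated lines alone, and for H4C7 when culture numbers were left out (-0.030 to 0.010), none of which had passed except H2BC21. The cause was not tested. Family medians kept their sign under each setting run. A common array median or quantile normalization within batch changed no call over all lines among the 36 genes named, while the rises within FU-OV-1 went from 5 to 3.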

Other observations

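Probe sets annotated to several symbols, of which at least 1 is a core histone gene, lie outside the rule, which asks for 1 symbol. There were 20, of which 17 had values of their own. Of those 17, 6 fell after cisplatin over the 46 lines and 0 rose (2.63% of all probe sets fell), with a median change of -0.18. A probe set shared by H2BC18 and H2BP1 fell by 0.44 (SE 0.07) and a probe set of H3C4 and H2AC7 by 0.35 (SE 0.08). A probe set shared by H4C14 and H4C15 was at 0.18 (SE 0.09), while the probe set counted as H4C14 was at -0.22 (SE 0.11), so the signals assigned to these copies did not have the same sign, and neither passed.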
